A study of Mus musculus with 8 samples.

Results

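The genes described are 51 mouse genes that make, read and shorten the 3' ends of messenger RNA, of 38924 genes counted in each library. They were taken by name and matched by gene identifier, 51 of 51, and fall into 4 classes: 20 genes of 3' end cleavage and polyadenylation, 7 microRNA effectors, 4 genes of deadenylation and tail binding, and 20 RNA-binding proteins that act on introns and 3' UTRs. RNA on tagged ribosomes was sequenced in 8 libraries from embryonic mouse brain. The 6 midbrain dopamine libraries were datL (n = 2), datM (n = 2), Lateral (n = 1) and Medial (n = 1), and they were set against hindbrain serotonin neurons (n = 2). The ribosome tag is carried by a bacTRAP transgene, an artificial chromosome in which a cell-type gene drives a tagged ribosomal protein. The design text of the series gives the dopamine transporter gene Slc6a3 as the driver for dopamine and the serotonin transporter gene Slc6a4 for serotonin. The description of every library, serotonin included, names the Slc6a3 line, so groups follow the titles. The embryos are described as normal, with no other genotype. All embryos were dissected on embryonic day 15. A protocol text shared by all libraries adds that midbrain called day 18 was kept 3 days in vitro after that dissection, and the file headers of Lateral and Medial carry the mark E18. The labels do not spell out L and M and do not say which libraries came from separate animals, and p-values therefore reflect only how these libraries vary, which may be technical.

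Almost every messenger RNA ends in a poly(A) tail that is added after the transcript is cut a short way past the signal AAUAAA. A complex called CPSF reads the signal and cuts, CstF binds the GU-rich stretch past the cut, and the factors CFIm and CFIIm help to choose and process the site, so that one gene can give mRNAs with short or long 3' UTRs. In the cytoplasm, Argonaute proteins guided by microRNAs recruit TNRC6 proteins to sites in the 3' UTR, and these call in the CCR4-NOT complex, which removes the tail. Neurons are known for long 3' UTRs, and neuronal proteins of the ELAVL, NOVA, RBFOX, CELF and PTBP families bind introns and 3' UTRs and shape which isoforms are made.

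Total counts were 22417739 to 33216710 per library. For datL and datM the file headers give a sequencing folder of October, and these 4 libraries detected 11708 to 12509 genes, while the lane 8 libraries (Lateral, Medial and serotonin) detected 13703 to 15656. Neuron type was therefore also compared within lane 8 alone. Both dopamine libraries of that lane carry the E18 mark and neither serotonin library does, so neuron type and any time in vitro cannot be told apart there. Slc6a3 stood at 31.9 to 740 CPM (the gene's count over all counts of the library, times 1000000) in dopamine libraries and at 0.171 and 0.679 CPM in serotonin libraries, and Slc6a4 at 0 to 5.27 CPM and 1075 to 1196 CPM. The 7 dopamine neuron markers as a list did not separate the groups, with sums of 388 to 2068 CPM in dopamine libraries and 1075 to 1262 CPM in serotonin libraries. Th, the enzyme that commits to dopamine synthesis, and Nr4a2, a regulator of dopamine neurons, had positive log2 fold changes of 5.16 and 4.94. Slc18a2 and Ddc, which serotonin neurons also use, had -2.12 and -1.88, with Slc18a2 at 0 in datL replicate 1, and En1 had -0.21. Pitx3, another dopamine neuron regulator, was at most 4.01 CPM in any library. The 5 serotonin neuron markers summed to 11.8 to 423 CPM in dopamine libraries and 4155 to 4971 CPM in serotonin libraries. The summed level of 11 radial glia and astrocyte genes was 2140 to 5148 CPM in dopamine libraries, above the 1047 to 1433 CPM of serotonin libraries. Of 7 genes of dividing cells the sum was 181 to 567 CPM against 80.5 to 87.3 CPM, and of 5 red blood cell genes 102 to 606 CPM against 26.1 to 40.7 CPM. The 6 oligodendrocyte lineage genes summed to 28.4 to 273 CPM and 21.1 to 32.7 CPM, 4 endothelial genes to 0.0367 to 55.2 CPM and 6.24 to 9.26 CPM, and 5 microglial genes to 0 to 13.5 CPM and 0.0343 to 1.9 CPM, with Csf1r at 0 in all 8. The 7 general neuron genes summed to 14634 to 20837 CPM and 19713 to 19766 CPM, and 3 GABA neuron genes to 50.2 to 770 CPM and 109 to 157 CPM. What these cells contributed to the levels of the 51 genes was not tested, and fewer cells of a type cannot be told apart from less RNA per cell.

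Compared per kilobase of annotated exon, so that long and short genes can be set side by side, the most abundant member over all 8 libraries was Matr3, a nuclear RNA-binding protein, at 342 CPM per kb. It was followed by Celf4 at 141, Elavl4 at 94.7, Elavl3 at 93.6 and Ptbp2 at 87.7 CPM per kb, all of which are RNA-binding proteins of neurons. In the other classes Pabpc1, the cytoplasmic poly(A)-binding protein, led deadenylation at 60.1 CPM per kb, Cstf2t and Cpsf3 led 3' end cleavage at 36.2 and 36.1, and Tnrc6a led the microRNA effectors at 34.9. The lowest were Sympk, Ago3, Msi1 and Pabpn1, between 0.15 and 1.21 CPM per kb. The summed level of all 51 genes was 1079 to 2083 CPM per kb in dopamine libraries and 980 and 1038 CPM per kb in serotonin libraries, with datL replicate 1 lowest among the dopamine libraries. Matr3 alone averaged 406 CPM per kb in dopamine and 151 CPM per kb in serotonin libraries. No such sum was taken over other genes of like length. Exon length here is the union of all annotated exons of a gene, which would lower the value of a gene such as Celf2 (25.9 kb) if some of its annotated exons are not used in these cells.

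**Figure D1:**
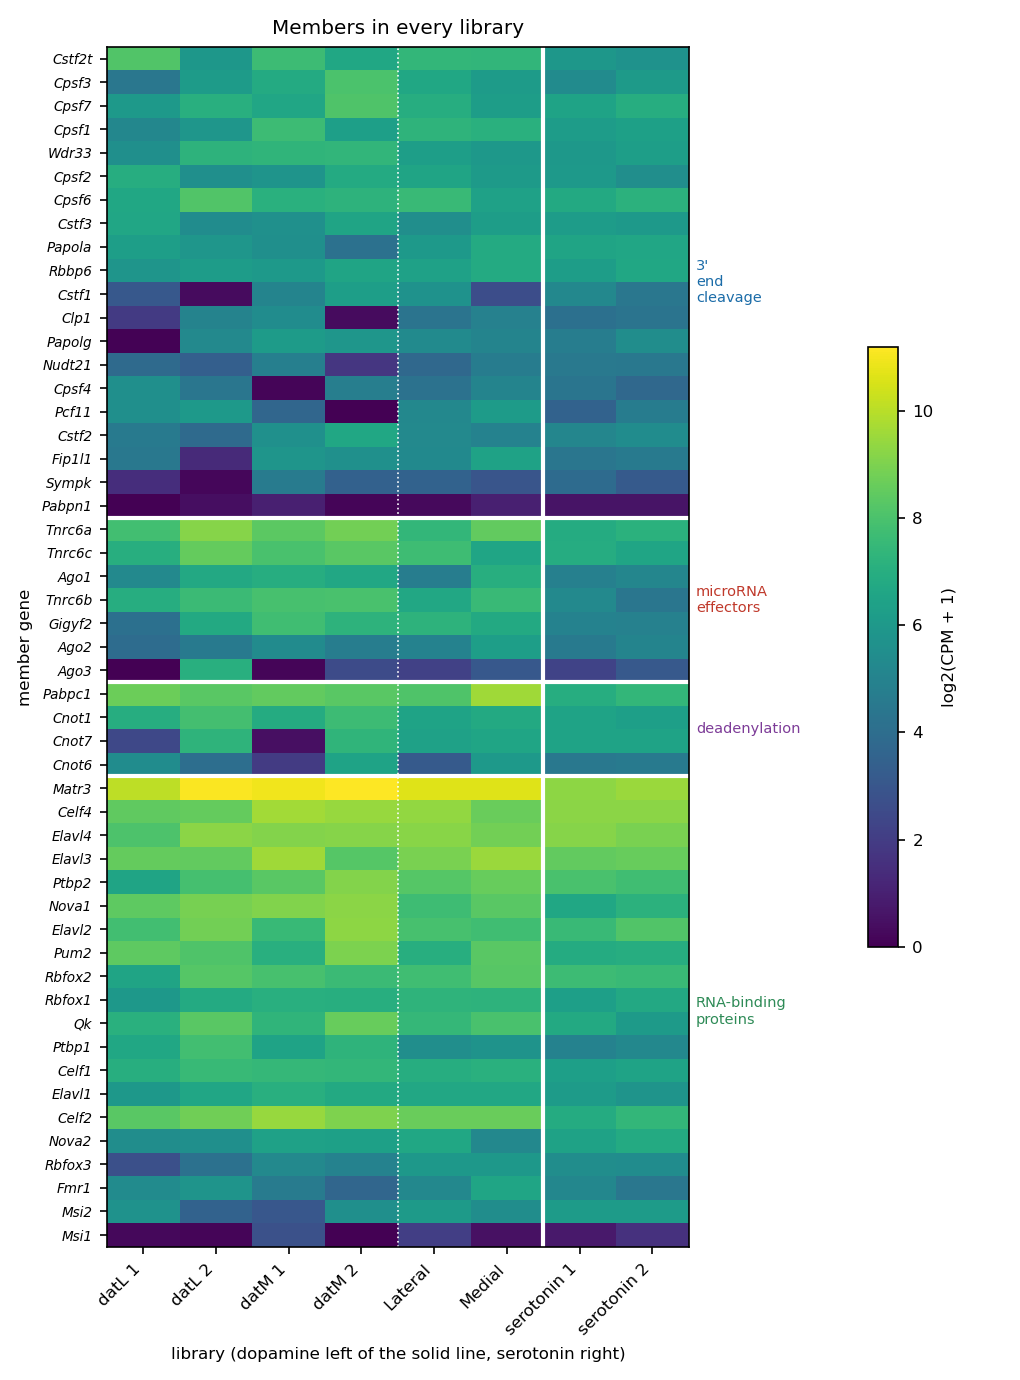
Level of each of the 51 genes in each library as log2(CPM + 1), with the 6 dopamine libraries left of the solid white line and the 2 serotonin libraries right of it. The dotted line parts the October libraries from Lateral and Medial. Rows are grouped by class and ordered by mean level per kb. Single dark cells (Cstf1 in datL 2, Papolg in datL 1, Cpsf4 in datM 1, Pcf11 in datM 2) lie among the October libraries.

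Low values were most frequent in the October libraries. Of the 51 genes, 10 stood under 1 CPM in at least 1 of the 4 October libraries. The count was 2 in Lateral or Medial and 2 in the serotonin libraries, each a set of only 2 libraries. Counts of 0 were found for Pabpn1 and Ago3 in datL replicate 1 and for Pcf11 and Msi1 in datM replicate 2, where a count of 0 allows up to 0.132 and 0.125 CPM (3 counts of the total, counting error only). Among members with a count in every dopamine library, 23 varied by at least 4-fold over these libraries, and the 4 genes with a count of 0 are not among the 23. The counts under 1 CPM and of 4-fold ranges were not taken over all genes. On the scale of log2(CPM + 1), the median SD over the 6 dopamine libraries was 0.78 for the 51 genes and 1.32 for the 8834 tested genes with a mean of at least 10 CPM. It was 0.59 for RNA-binding proteins, 0.80 for microRNA effectors, 0.95 for 3' end cleavage and 1.16 for deadenylation. Between the 2 serotonin libraries the median difference was 0.29 for the 51 genes and 0.33 for those tested genes.

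The first comparison asked which of the 51 genes differed between dopamine and serotonin neurons. None passed edgeR's quasi-likelihood test at an adjusted p under 0.05 over the 13806 genes tested, where 0% of all genes passed, and the smallest adjusted p of a member was 0.328. The genes nonetheless lay mostly on the dopamine side. The log2 fold change (dopamine over serotonin) was positive for 43 of 51 members, with a median of 0.64. It was positive for 8137 of all 13806 genes, with a median of 0.26. At an unadjusted p under 0.05 there were 11 members higher in dopamine libraries (2.8% of all genes tested) and 0 lower (1.9% of all genes). Every one of the 6 dopamine libraries lay above both serotonin libraries for 12 members, or 23.5% of them, where 3.06% of all genes did so. Without datL replicate 1 the count was 16 members, where 6.11% of all genes did so. One member, Msi2, lay below in all 6, where 8.59% of all genes did. Among genes with a mean of at least 10 CPM the shares were 4.38% above and 8.12% below, and 48 members had such a mean, including those 12 and Msi2. In DESeq2, 5 members passed, all higher in dopamine libraries (Tnrc6b, Pabpc1, Celf2, Nova1 and Matr3), where 0.963% of all genes passed.

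Within lane 8, Lateral and Medial against the same serotonin libraries, 0 members passed in edgeR (0.0224% of 13400 genes did), and the smallest adjusted p of a member was 0.273. Positive log2 fold changes were found for 35 members and for 6814 of all 13400 genes, with medians of 0.45 and 0.03. At an unadjusted p under 0.05, 10 members were higher (7.34% of all genes) and 0 lower (6.46%). Both dopamine libraries of the lane lay above both serotonin libraries for 26 members, or 51%, and below for 1, against 25% and 24.6% of all genes. The share of all genes above rose with exon length, as given below. The count for datL and datM, set against the same serotonin libraries, was 14 members above (4.69% of all genes). DESeq2 called 6 members in the lane (Cstf2t, Tnrc6b, Gigyf2, Pabpc1, Celf2 and Matr3, with 5.87% of all genes called). Without Lateral, Medial alone against serotonin gave 13 members past edgeR's threshold, 12 of them higher and Nova2 lower, where 17.3% of all genes passed. In that fit the single Medial library is assumed to vary like the serotonin pair.

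**Figure D2:**
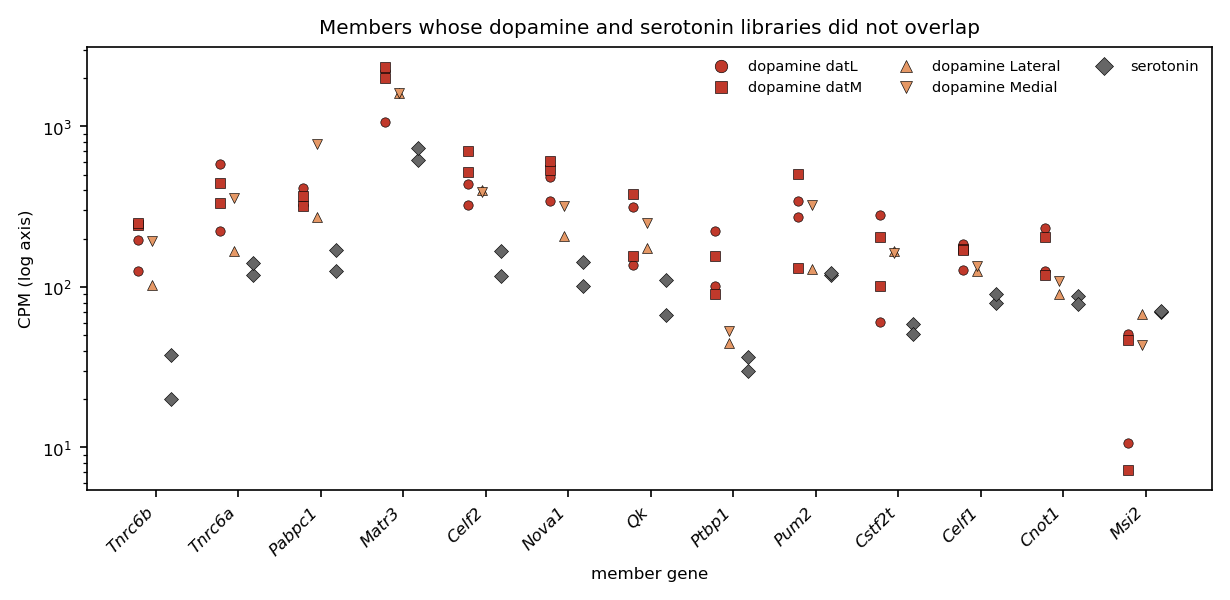
CPM on a log axis of the 13 members whose 6 dopamine and 2 serotonin libraries did not overlap, each symbol being 1 library, with dopamine left and serotonin right within each gene. Tnrc6b shows the widest gap, with 103 to 250 CPM in dopamine libraries and 20 and 37.7 CPM in serotonin libraries, and Msi2 is the only one of the 13 that was lower in dopamine libraries.

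Fold changes went with exon length across the whole table, and these 51 genes are long. Their median exon length was 6.41 kb, against 3.71 kb for all genes tested. Among tested genes with a mean of at least 10 CPM, the median log2 fold change of dopamine over serotonin was -0.28 for genes under 2 kb, 0.11 at 2 to 4 kb, 0.42 at 4 to 6 kb, 0.66 at 6 to 8 kb, 0.85 at 8 to 12 kb and 1.15 above 12 kb. In lane 8 the same medians ran from -0.66 under 2 kb to 0.80 above 12 kb. The share of genes with all 6 dopamine libraries above serotonin was 1.5% under 2 kb and 18.3% above 12 kb. In lane 8 the share with both dopamine libraries above serotonin was 21.2% at 2 to 4 kb and 30.9% at 4 to 6 kb. It was 38.8% at 6 to 8 kb, 49.1% at 8 to 12 kb and 59.3% above 12 kb. Members above serotonin in these bins of lane 8 were 4 of 10, 8 of 13, 5 of 9, 6 of 13 and 3 of 6. Over all 8 libraries, set against genes of their own length bin, 31 of 51 members lay above the bin's median, by 0.15 in the median. A length trend was then removed as an offset in the fit, an alternative added after seeing the data. The members' median log2 fold change over all libraries was then 0.44 beside 0.25 for all genes. Positive values were held by 35 of 51 members and 8153 of 13806 genes. In lane 8 the medians were 0.20 and 0.04, with 30 members and 6896 of 13400 genes positive.

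**Figure D3:**
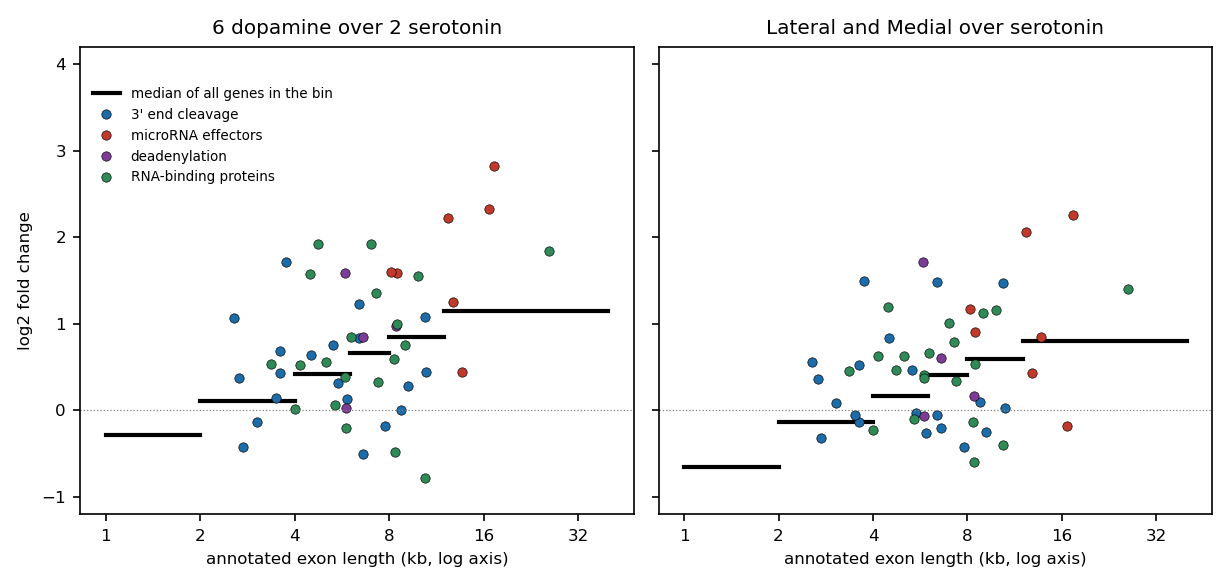
Log2 fold change of the 51 members against annotated exon length (log axis), for 6 dopamine over 2 serotonin libraries (left) and Lateral and Medial over serotonin (right), coloured by class. Black lines are medians of all tested genes with a mean of at least 10 CPM in each length bin, with the first and last bins drawn to 1 and 40 kb. In both panels the black lines climb with length, and several microRNA effectors (red) lie above the line of their bin.

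The microRNA effectors held the largest log2 fold changes of the 4 classes. All 7 were positive, with a median of 1.60, a median of 0.91 in lane 8 (6 of 7 positive) and a median exon length of 12.84 kb. Of the 7, 6 lay above the median of their length bin, and with the length offset the medians were 1.05 over all libraries and 0.40 in lane 8. By edgeR 0 of the 7 passed. The TNRC6 proteins, which link Argonaute to the deadenylase, are encoded by Tnrc6a, Tnrc6b and Tnrc6c. Tnrc6b (ENSMUSG00000047888.9, chromosome 15, 80711319 to 80941086, mm10) had 126 and 197 CPM in datL, 243 and 250 CPM in datM, 103 CPM in Lateral and 194 CPM in Medial, against 37.7 and 20 CPM in serotonin libraries. The lowest dopamine library thus stood well above the higher serotonin library. Its log2 fold change was 2.82 (SE 0.60, edgeR adjusted p = 0.328), higher in 6 of 6 dopamine libraries, and 2.26 in lane 8 (SE 0.50, edgeR adjusted p = 0.273). With the length offset these were 1.77 and 1.27, a change of over 1.5 times on the log2 scale, and the adjusted p over all alternatives ran from 5.01e-05 in DESeq2 to 1.

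Tnrc6a (ENSMUSG00000052707.7, chromosome 7, 123123885 to 123195288) had 224 and 580 CPM in datL, 334 and 447 CPM in datM, 167 CPM in Lateral and 357 CPM in Medial, against 118 and 142 CPM in serotonin libraries, again without overlap (a difference of 1.59 on the log2 scale, SE 0.55, with an edgeR adjusted p of 0.738). Tnrc6c had 128, 378, 250, 317, 207 and 96 CPM in the same order of dopamine libraries, against 121 and 95.3 CPM in serotonin libraries. Medial lay between the 2 serotonin values, so the groups overlapped (log2 fold change 1.25, SE 0.61). With the length offset the log2 fold change of Tnrc6a was 1.02, and 0.40 in lane 8 against 0.91 without it. That of Tnrc6c was 0.38, and -0.29 in lane 8 against 0.43 without it. Gigyf2, which represses translation of microRNA targets, had 16.5 and 110 CPM in datL, 216 and 150 CPM in datM, 148 CPM in Lateral and 111 CPM in Medial, against 29.8 and 29.2 CPM in serotonin libraries. Only datL replicate 1 lay below serotonin. The log2 fold change was 2.22 (SE 0.83, edgeR adjusted p = 0.874) over all libraries and 2.06 (SE 0.37, edgeR adjusted p = 0.273) in lane 8, where it was 1.36 with the length offset, and 5.06% of its exon bases overlap Kcnj13 on the other strand. Of the Argonautes, Ago1 had 37.7 and 108 CPM in datL, 125 and 103 CPM in datM, 25.6 CPM in Lateral and 130 CPM in Medial, against 28.7 and 34.7 CPM in serotonin libraries. Lateral was below both serotonin libraries and the other 5 were above them. Ago2, the Argonaute that can cut its target, had 14.4 to 77.6 CPM in dopamine libraries and 22.7 and 32.5 CPM in serotonin libraries. Ago3 had 133 CPM in datL replicate 2 but 0, 0.11, 4.91, 3.43 and 7.36 CPM in datL replicate 1, datM and lane 8 dopamine libraries, against 3.7 and 7.68 CPM in serotonin libraries, so its mean rests on 1 library.

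The transcripts of these genes carry long 3' UTRs of their own. In GENCODE vM21 on GRCm38, the same build as mm10, the chosen transcript of Tnrc6b had 11612 bases after its coding part, that of Ago2 11067 and that of Ago3 12745. Over the 51 genes the median was 1970 bases, and over 12924 protein-coding genes tested it was 1075. The signal AATAAA was found on the transcript strand within the last 40 bases of 29 of the 51 transcripts (56.9%, against 62.3% of the tested protein-coding genes), and ATTAAA, the commonest variant, in 4 more (7.84%, against 14.2%). A missing match says only that these letters are not in that window. Nova1, Matr3 and Cstf2t, which DESeq2 called in a comparison given above, had no match in it. Ptbp1 and Qk, whose ends are printed, passed the threshold in no fit. The ends of 5 members, picked from those with a match, are given below as DNA from 5' to 3' with the signal in capitals. They lie at chr15:80941050-80941079 (+ strand), chr7:123195260-123195289 (+), chr15:36595664-36595693 (-), chr10:79864403-79864432 (+) and chr17:10202609-10202638 (-).
Tnrc6b: agaaaaaagactAATAAAtgtgtttggctg
Tnrc6a: ttgttatgtggaAATAAAgtgtttgattta
Pabpc1: aattcttgctttAATAAAaattccttaaac
Ptbp1: gggcctggattcAATAAAcacctgtgtctt
Qk: aattggatactgATTAAAacattacagtgt
The first 4 hold the canonical signal and Qk the variant, but only ends with a match were picked. The Qk end lies beyond the gene model of the older annotation that was counted, so reads at it are not part of the values given here. Counts were made per gene, so which end was used in which library was not analysed here.

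Of the 4 genes of deadenylation and tail binding, all had positive log2 fold changes (median 0.91, and 0.38 in lane 8 with 3 positive), and with the length offset the medians were 0.45 and -0.06. Pabpc1 (ENSMUSG00000022283.8, chromosome 15, 36595661 to 36608973, - strand), which coats the tail in the cytoplasm, had 412 and 325 CPM in datL, 367 and 321 CPM in datM, 272 CPM in Lateral and 780 CPM in Medial, against 125 and 170 CPM in serotonin libraries. Each dopamine library exceeded both serotonin values, and Medial was the highest. The log2 fold change was 1.59 (SE 0.47, edgeR adjusted p = 0.48) and, within lane 8, 1.72 (SE 0.50, edgeR adjusted p = 0.286), or 0.87 without Medial. Pabpc1 has processed copies elsewhere in the genome, with which reads could be shared. Cnot1, the scaffold of CCR4-NOT, had 126 and 232 CPM in datL, 119 and 206 CPM in datM, 90.1 CPM in Lateral and 109 CPM in Medial, against 87.9 and 78.5 CPM in serotonin libraries. The groups did not overlap, but Lateral exceeded the higher serotonin library only slightly (log2 fold change 0.98, SE 0.55, edgeR adjusted p = 1, and 0.43 with the length offset). The 2 catalytic subunits varied most within the class. Cnot7 had 4.45 and 155 CPM in datL, 0.367 and 159 CPM in datM, 83.3 CPM in Lateral and 94.9 CPM in Medial, against 88.3 and 88.0 CPM in serotonin libraries. Cnot6 had 42.3, 15.4, 2.86, 89.9, 7.89 and 66.5 CPM in the same dopamine libraries, against 21.3 and 23.5 CPM in serotonin libraries. For both, some dopamine libraries lay above serotonin and others below it, and no log2 fold change was larger than its SE.

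For the 3' end cleavage genes the shift was the smallest of the 4 classes. Of the 20, 15 had positive log2 fold changes, with a median of 0.40 against 0.26 for all genes, 11 of 20 lay above the median of their length bin, and within lane 8 the median was 0.06 with 11 positive. One of the 20, or 5%, lay above serotonin in all 6 dopamine libraries, a share near the 3.06% of all genes and 4.38% of those with a mean of at least 10 CPM. It was Cstf2t (ENSMUSG00000053536.6, chromosome 19, 31082841 to 31086590, + strand). It encodes a form of the CstF subunit that binds GU-rich sequence. It had 280 and 60.4 CPM in datL, 204 and 102 CPM in datM, 168 CPM in Lateral and 162 CPM in Medial, against 58.9 and 51.2 CPM in serotonin libraries. The lowest dopamine value lay just above the higher serotonin value. The log2 fold change was 1.71 (SE 0.63, edgeR adjusted p = 0.864), 1.5 within lane 8 (SE 0.31, edgeR adjusted p = 0.273), and 1.70 and 1.5 with the length offset. Cstf2t arose as a retrocopy of Cstf2, and how reads were shared between the copies cannot be seen from the counts. Cstf2 itself had 13.7 to 102 CPM in dopamine libraries and 34.6 and 42.5 CPM in serotonin libraries.

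Of the CPSF subunits, Cpsf3, the endonuclease, had 20.9 and 69.5 CPM in datL, 114 and 258 CPM in datM, 99.3 CPM in Lateral and 68.9 CPM in Medial, against 41.4 and 67.9 CPM in serotonin libraries. Its inactive partner Cpsf2 had 126, 47.3, 53.7, 113, 92.3 and 68 CPM in the same dopamine libraries, against 63.7 and 45.9 CPM in serotonin libraries. For both, 1 or more October libraries fell within or below the serotonin values, and the log2 fold changes of 1.07 (SE 0.82) and 0.75 (SE 0.62) had an edgeR adjusted p of 1. Cpsf1 averaged 111 ± 64.2 CPM in dopamine libraries (SD, n = 6) and 76.8 ± 5.84 CPM in serotonin libraries (SD, n = 2). Wdr33, which contacts the signal, had 46.2 and 150 CPM in datL, 159 and 163 CPM in datM, 77.4 CPM in Lateral and 61.6 CPM in Medial, against 61.1 and 76.0 CPM in serotonin libraries, and its log2 fold change was 0.83 over all libraries (SE 0.65) and -0.05 within lane 8. Fip1l1, which ties CPSF to the poly(A) polymerase, had 21.2 and 1.53 CPM in datL, 56.0 and 48.5 CPM in datM, 38.8 CPM in Lateral and 87.1 CPM in Medial, against 19.8 and 22.4 CPM in serotonin libraries. Both lane 8 dopamine libraries and both datM libraries lay above serotonin, and datL did not. Cpsf4, the zinc finger subunit, averaged 23.8 ± 15.4 CPM and 16.2 ± 4.85 CPM, and the scaffold Sympk 8.92 ± 8.59 CPM and 11 ± 4.36 CPM, in dopamine and serotonin libraries (SD, n = 6 and n = 2).

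Among the factors that influence the choice of site, the CFIm and CFIIm genes overlapped between the neuron types over the 8 libraries. So did the CstF genes Cstf1 and Cstf3, while Cstf2t, given above, did not. Nudt21, the small CFIm subunit whose loss is known to move cleavage to upstream sites, averaged 15.1 ± 9.38 CPM in dopamine libraries and 21.9 ± 0.486 CPM in serotonin libraries, with a log2 fold change of -0.43 (SE 1.27). Its partner Cpsf6 averaged 157 ± 72.8 CPM and 129 ± 24.4 CPM (0.44, SE 0.55), and Cpsf7 128 ± 75.7 CPM and 105 ± 24.3 CPM (0.43, SE 0.60). Each of these log2 fold changes was smaller than its SE. In CFIIm, Pcf11 had 47.1 and 65.2 CPM in datL, 11.9 and 0 CPM in datM, 36.5 CPM in Lateral and 69.1 CPM in Medial, against 10.4 and 25 CPM in serotonin libraries. Of the 6 dopamine libraries, 5 exceeded the lower serotonin value and 1 held no count. Within lane 8, Pcf11 did not overlap, and its log2 fold change was 1.48 (SE 0.65, edgeR adjusted p = 0.395). Clp1 did not overlap there either (0.36, SE 0.67). It averaged 20.8 ± 16.8 CPM and 17.5 ± 1.46 CPM, and the CstF subunits Cstf1 28.7 ± 30.1 CPM and 28.5 ± 11.4 CPM and Cstf3 66.5 ± 24.5 CPM and 67.0 ± 5.43 CPM, in dopamine and serotonin libraries.

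Papola, the main poly(A) polymerase, averaged 62.1 ± 31.8 CPM in dopamine libraries and 95.2 ± 4.48 CPM in serotonin libraries (a difference of -0.51 on the log2 scale, SE 0.65, with an edgeR adjusted p of 1), the most negative value in the class. Papolg, a second polymerase, averaged 39.6 ± 24.0 CPM and 35.0 ± 13.2 CPM, and Rbbp6, an activator of the cut, 80.4 ± 21.0 CPM and 87.0 ± 18.5 CPM. Pabpn1, the nuclear poly(A)-binding protein, had 0 and 0.343 CPM in datL, 0.954 and 0.125 CPM in datM, 0.211 CPM in Lateral and 0.981 CPM in Medial, against 0.509 and 0.514 CPM in serotonin libraries. In the annotation that was counted, 21.4% of its exon bases lie on the same strand as the gene model Gm20521, and reads in shared bases may have gone uncounted. Its other exon bases are not shared, and the gene had 0 to 26 counts per library. What the overlap did to its level was not tested, and the low level cannot be read as absence.

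Among the 20 RNA-binding proteins, 17 had positive log2 fold changes with a median of 0.57 (0.50 within lane 8, with 15 positive), 7 lay above serotonin in all 6 dopamine libraries and 1 below (3.06% and 8.59% of all genes), and 11 of 20 lay above the median of their length bin. Within lane 8, 14 of the 20 lay above both serotonin libraries and 1 below, or 70% and 5%, against 25% and 24.6% of all genes. The class had a median exon length of 6.51 kb. For genes of 6 to 8 kb with a mean of at least 10 CPM, the share above in that lane was 38.8%. By edgeR 0 of the 20 passed. Matr3 (ENSMUSG00000037236.8, chromosome 18, 35562158 to 35592045) had 1069 and 2226 CPM in datL, 2007 and 2342 CPM in datM, 1623 CPM in Lateral and 1626 CPM in Medial, against 617 and 731 CPM in serotonin libraries. Every dopamine library exceeded both serotonin libraries. Its log2 fold change was 1.57 (SE 0.42, edgeR adjusted p = 0.352), 1.19 in lane 8 (SE 0.29, edgeR adjusted p = 0.281), and 1.47 and 1.09 with the length offset, so for this gene of 4.47 kb the offset moved it little. Nova1 (ENSMUSG00000021047.6, chromosome 12, 46694517 to 46818775, - strand), a splicing factor of neurons, had 342 and 483 CPM in datL, 536 and 613 CPM in datM, 208 CPM in Lateral and 320 CPM in Medial, against 101 and 144 CPM in serotonin libraries. The October libraries were highest and serotonin lowest (log2 fold change 1.92, SE 0.54, edgeR adjusted p = 0.392, and 1.01 within lane 8, SE 0.34, edgeR adjusted p = 0.291).

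Celf2 (ENSMUSG00000002107.12, chromosome 2, 6539694 to 7509563, - strand), which binds GU-rich introns and 3' UTRs, had 322 and 435 CPM in datL, 701 and 520 CPM in datM, 402 CPM in Lateral and 391 CPM in Medial, against 117 and 168 CPM in serotonin libraries. The groups were separate, and the log2 fold change was 1.84 (SE 0.46, edgeR adjusted p = 0.328) over all libraries and 1.4 in lane 8 (SE 0.30, edgeR adjusted p = 0.273). With the length offset these were 0.66 and 0.33, and 7.58% of its exon bases are shared with the antisense model Gm26565. Its paralog Celf1 averaged 153 ± 26.4 CPM and 84.9 ± 6.94 CPM in dopamine and serotonin libraries, also without overlap (1.00, SE 0.46, edgeR adjusted p = 1, and 0.47 with the length offset). Celf4, the most abundant family member, had 355 and 370 CPM in datL, 791 and 716 CPM in datM, 667 CPM in Lateral and 401 CPM in Medial, against 599 and 600 CPM in serotonin libraries, so that the serotonin values lay inside the dopamine range. Qk, the quaking protein, which is abundant in glia and progenitors, had 137 and 316 CPM in datL, 157 and 382 CPM in datM, 174 CPM in Lateral and 249 CPM in Medial, against 110 and 66.9 CPM in serotonin libraries (a difference of 1.55 on the log2 scale, SE 0.55, with an edgeR adjusted p of 0.792, and 0.84 with the length offset). Ptbp1, which is made in progenitors and non-neuronal cells and is replaced by Ptbp2 in neurons, had 102 and 222 CPM in datL, 90 and 156 CPM in datM, 44.6 CPM in Lateral and 53.2 CPM in Medial, against 29.9 and 36.5 CPM in serotonin libraries. Both lay above serotonin in every dopamine library. Ptbp1 had a log2 fold change of 1.92 over all libraries (SE 0.77, edgeR adjusted p = 0.954) and 0.47 within lane 8 (SE 0.45). The radial glia and astrocyte genes summed to 3901 and 2140 CPM in datL, 5148 and 3011 CPM in datM, 2427 CPM in Lateral and 4402 CPM in Medial. In serotonin libraries they summed to 1047 and 1433 CPM, and all 11 had positive log2 fold changes. The dopamine library with the lowest sum, datL replicate 2, had the highest Ptbp1. Of its sum, 1407 CPM were Fabp7, so the sum says little of the other genes on the list. The dopamine library with the highest sum, datM replicate 1, had 90 CPM of Ptbp1 and 157 CPM of Qk. The part of the radial glia and astrocyte signal in the levels of Qk and Ptbp1 was not tested. Of the exon bases of Ptbp1, 16.3% are shared with genes on the other strand.

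Ptbp2 had 92.0 and 234 CPM in datL, 322 and 559 CPM in datM, 298 CPM in Lateral and 384 CPM in Medial, against 253 and 216 CPM in serotonin libraries, and its log2 fold change was 0.54 (SE 0.55). Pum2, a repressor that binds 3' UTRs, averaged 283 ± 141 CPM and 121 ± 3.11 CPM in dopamine and serotonin libraries without overlap (1.36, SE 0.59, edgeR adjusted p = 1). Lateral, at 130 CPM, and datM replicate 1, at 132 CPM, were close to the serotonin libraries, at 119 and 123 CPM. Fmr1, the fragile X protein gene, averaged 43.8 ± 28.5 CPM and 27.7 ± 10.1 CPM. Of the ELAVL proteins, which bind U-rich and AU-rich 3' UTRs, the broadly made Elavl1 averaged 102 ± 23.6 CPM and 62.3 ± 10.2 CPM, and the neuronal Elavl2, Elavl3 and Elavl4 averaged 321 ± 175, 503 ± 198 and 504 ± 126 CPM in dopamine libraries and 236 ± 64.5, 371 ± 20 and 529 ± 64.6 CPM in serotonin libraries. None of the 4 was separate between the groups over the 8 libraries, while Elavl1 and Elavl3 lay above both serotonin libraries within lane 8. Elavl3 had 368 and 365 CPM in datL, 763 and 299 CPM in datM, 496 CPM in Lateral and 728 CPM in Medial, against 357 and 386 CPM in serotonin libraries. The RBFOX splicing factors also overlapped between the groups over the 8 libraries, while within lane 8 each lay above both serotonin libraries. Rbfox1 averaged 123 ± 34.0 CPM and 93.4 ± 19.7 CPM, Rbfox2 227 ± 79.9 CPM and 196 ± 10.1 CPM, and Rbfox3, the neuronal marker NeuN, 35.6 ± 22.7 CPM and 43.4 ± 1.26 CPM, in dopamine and serotonin libraries. Rbfox3 had 5.64 to 37.9 CPM in the October libraries, 61.1 CPM in Lateral and 61.2 CPM in Medial, against 44.3 and 42.5 CPM in serotonin libraries.

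Nova2 and Msi2 were the only 2 of the 51 whose highest library was a serotonin library. Nova2 had 43.3 and 46.5 CPM in datL, 83.3 and 81.6 CPM in datM, 100 CPM in Lateral and 36.9 CPM in Medial, against 85.3 and 115 CPM in serotonin libraries, and only Lateral reached the serotonin range (log2 fold change -0.48, SE 0.59, edgeR adjusted p = 1). Of its exon bases, 31.7% are shared with the antisense model Gm26821. Msi2, a musashi protein of progenitors and young neurons, had 50.8 and 10.6 CPM in datL, 7.23 and 46.5 CPM in datM, 67.5 CPM in Lateral and 43.6 CPM in Medial, against 69.8 and 70.4 CPM in serotonin libraries, and was lower in 6 of 6 dopamine libraries (-0.78, SE 0.86, edgeR adjusted p = 1). Msi1 had 0.176 and 0.114 CPM in datL, 5.91 and 0 CPM in datM, 3.19 CPM in Lateral and 0.401 CPM in Medial, against 0.679 and 2.06 CPM in serotonin libraries, too few counts to order the groups.

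Ratios within a family depend less on the depth of a library, so the share of each paralog in its family's summed CPM per kb was taken in every library. In the Nova pair, Nova1 made up 90.4% and 92.6% in datL, 88.5% and 90% in datM, 71.3% in Lateral and 91.2% in Medial, against 58.7% and 59.9% in serotonin libraries. Each dopamine share exceeded both serotonin shares, and the 5 other than Lateral lay between 88.5% and 92.6%. Without division by length, the mean share was 85.3% in dopamine and 54.9% in serotonin libraries, also without overlap. Tnrc6b made up 10.4% to 19.2% of the Tnrc6 family in dopamine libraries (mean 15.8%) and 8.55% and 4.56% in serotonin libraries. In the Celf family, the share of Celf2 was 7.87% to 12.8% and that of Celf4 70.5% to 84.6% in dopamine libraries, against 2.76% and 3.89% for Celf2 and 91.5% and 89.8% for Celf4 in serotonin libraries, both without overlap. Elavl1 had 6.28% to 7.47% of the Elavl family in dopamine libraries and 5.43% and 4.36% in serotonin libraries. These members differ in length from their paralogs (Tnrc6b 17.3 kb and Tnrc6a 8.47 kb, Celf2 25.9 kb and Celf4 4 kb, Nova1 7.00 kb and Nova2 8.37 kb). Of the exon bases of Nova2, 31.7% are shared with the antisense model Gm26821, and counts were made without strand. How far length or shared bases moved these shares was not tested. Ptbp1 was 44.1% and 40.2% of the Ptbp pair in datL, 16.5% and 16.6% in datM, 9.61% in Lateral and 8.95% in Medial, against 7.72% and 10.7% in serotonin libraries, so that the October libraries stood above the lane 8 libraries of both neuron types. In the Ago, Rbfox, Msi, Cstf2 and Papol families, every share overlapped between the neuron types, and no test was made of any share.

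**Figure D4:**
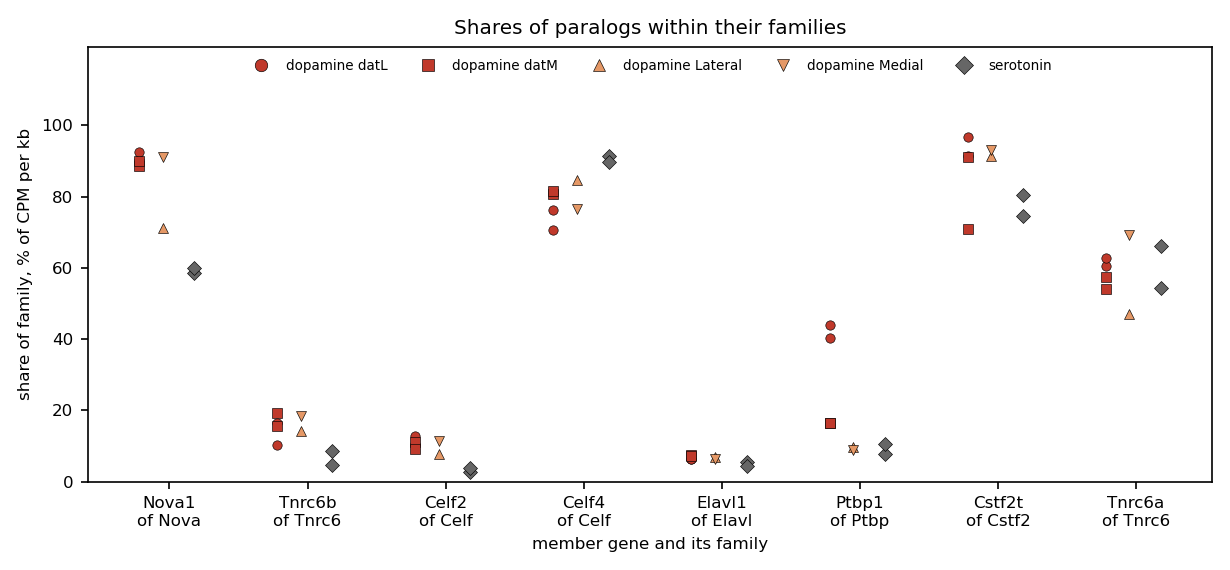
Share of 8 members in the summed CPM per kb of their family (percent, linear axis from 0), each symbol being 1 library, with dopamine left and serotonin right within each gene. Nova1, Tnrc6b, Celf2, Celf4 and Elavl1 are separate between the neuron types, with Nova1 at 71.3% to 92.6% in dopamine and 58.7% and 59.9% in serotonin libraries. Ptbp1 separates the October from the lane 8 libraries, and Cstf2t and Tnrc6a overlap.

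Of 90 other genes of the same pathways, 88 could be tested and 0 passed in edgeR. Of the 88, 64 had positive log2 fold changes, with a median of 0.54 and a median exon length of 4.55 kb, and within lane 8 the median was 0.17 with 53 of 87 positive. All 6 dopamine libraries lay above serotonin for 4 of them (4.55%) and below for 6 (6.82%), shares near those of all genes. By group, the medians were 0.47 for 3' end genes (13 of 21 positive), 0.60 for microRNA genes (8 of 12), 1.05 for deadenylation and decay genes (20 of 23) and 0.43 for RNA-binding proteins (23 of 32). In the same order, 13 of 21, 5 of 12, 19 of 23 and 17 of 32 lay above the median of their length bin. With the length offset the medians were 0.50, 0.17, 0.71 and 0.27, beside 0.25 for all genes. The 3 with the smallest p were Ppp1ca, a phosphatase of the cleavage machinery, at 275 ± 114 CPM in dopamine libraries and 763 ± 87.6 CPM in those of serotonin neurons (a difference of -1.32 on the log2 scale, SE 0.44, with an edgeR adjusted p of 0.69), Syncrip, an RNA-binding protein of transport granules, at 147 ± 48.1 CPM and 54.4 ± 7.16 CPM (1.59, SE 0.56, edgeR adjusted p = 0.767), and Xrn2, the exonuclease that ends transcription past the cut, at 226 ± 109 CPM and 77.8 ± 0.491 CPM (1.68, SE 0.60, edgeR adjusted p = 0.8). Ppp1ca is short, at 1.38 kb, and its value was -0.74 with the length offset, while that of Xrn2, at 3.98 kb, was 1.64.

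The second comparison set datL against datM. In edgeR 0 members passed (0% of 15177 genes did), and the smallest adjusted p of a member was 0.597. Negative log2 fold changes were found for 35 of 51 members, with a median of -0.33. They were found for 6668 of all 15177 genes and positive ones for 6888, with a median of 0.00. The rest stood at 0.00, such as Slc6a4, which had no count in any datL or datM library. Genes without such counts can be neither negative nor separate, which lowers the shares of all genes given here. At an unadjusted p under 0.05, 0 members were higher (3.4% of all genes) and 1 was lower (3.52%). DESeq2 called 0 members, where 10.6% of all genes were called. Both datL libraries lay above both datM libraries for 3 members and below them for 19, or 37.3%, against 11.3% and 13.2% of all genes. Among genes with a mean of at least 10 CPM, the share below rose from 15.3% at 2 to 4 kb of exon to 25.4% above 12 kb. The share above fell from 14.4% to 6.42% between the same bins. The members' median log2 fold change was -0.94 without datL replicate 2 and -0.26 without datL replicate 1. The 6 with the smallest p were Celf4, Ptbp2, Cpsf3, Cpsf1, Cstf1 and Cstf2, all lower in both datL libraries. For Celf4 the log2 fold change was -0.97 (SE 0.38, edgeR adjusted p = 0.597), that of Ptbp2 -1.36 (SE 0.60), that of Cpsf3 -1.97 (SE 0.87) and that of Cpsf1, at 35.8 and 57.1 CPM in datL and 203 and 79.0 CPM in datM, -1.53 (SE 0.74). Cstf1, the WD40 subunit of CstF, had 7.58 and 0.267 CPM in datL and 32.3 and 76.0 CPM in datM (-3.68, SE 1.82), and Cstf2 23.7 and 13.7 CPM in datL and 48.4 and 102 CPM in datM (-1.92, SE 1.06). Of the 20 cleavage genes, 8 were lower in both datL libraries and 2 were higher, Pcf11 and Papola, with Papola at 75.4 and 57.1 CPM in datL and 46.2 and 17.3 CPM in datM. Here fold changes ran with exon length the other way, with medians of 0.49 for genes under 2 kb and -0.36 above 12 kb, and with the length offset the median of the 51 genes was -0.21.

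Lateral and Medial were single libraries, so their ratio has no replicate check and was not tested on its own. Among 50 members with at least 100 counts over both, Lateral was over 2-fold higher for 5 and over 2-fold lower for 9, where 21.9% and 24.6% of all genes were. The 3 largest ratios were those of Cstf1, at 50.6 CPM in Lateral and 5.22 CPM in Medial, Cnot6, at 7.89 and 66.5 CPM, and Msi1, at 3.19 and 0.401 CPM. Cstf1 was thus higher in Lateral and lower in datL. The sign of the Lateral over Medial ratio was that of datL over datM for 21 of the 51. The same count was not taken over all genes, so it cannot be read as particular to the members. A test of whether the datL minus datM difference departed from the Lateral minus Medial difference gave 0 genes at an adjusted p under 0.05 in edgeR, with 399 of 15177 genes and 1 member at an unadjusted p under 0.05 and a smallest adjusted p of 1. In that fit the spread comes from the datL, datM and serotonin pairs, and the single Lateral and Medial libraries are assumed to vary like them.

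**Figure D5:**
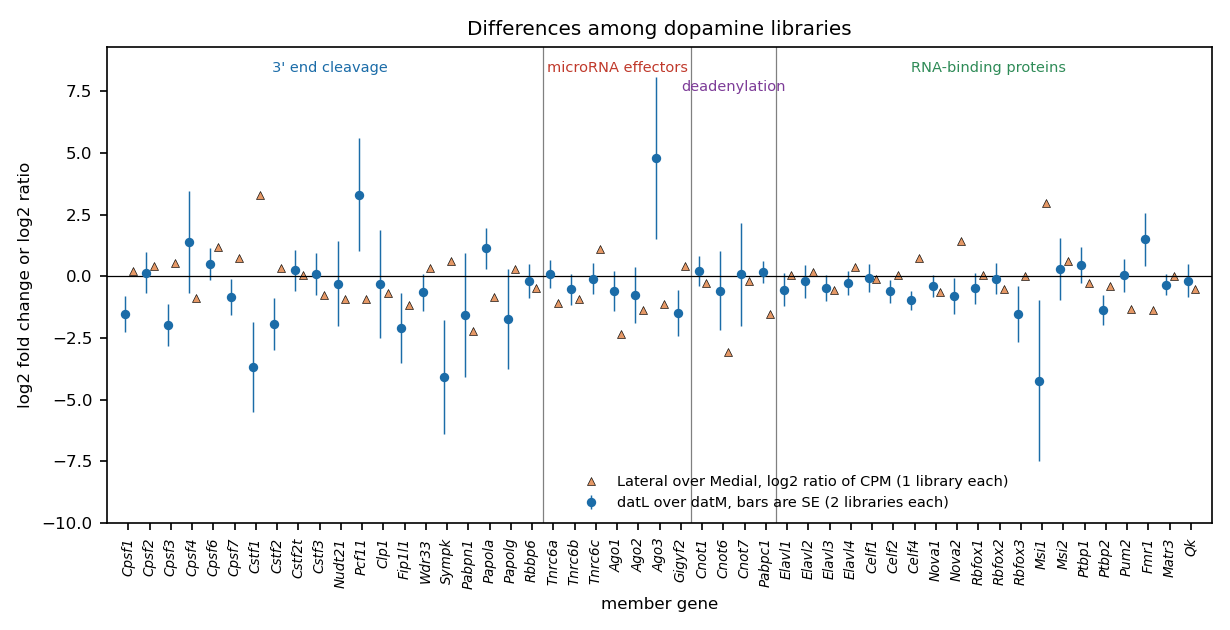
Log2 fold change of datL over datM for each member with its SE (circles, 2 libraries each) and log2 ratio of CPM of Lateral over Medial (triangles, 1 library each and so without error), with members grouped by class along the axis. Error bars are widest for Ago3, Msi1, Pabpn1, Sympk and Pcf11, each at or under 0.153 CPM in at least 1 October library, and Cstf1 has a log2 fold change of -3.68 for datL over datM and a log2 ratio of 3.28 for Lateral over Medial.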

How the data were processed

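Reads were aligned with STAR to mm10, per the submitters' processing notes, and counted per gene by featureCounts 1.4.3-p1 without strand against GENCODE vM2, per the file headers. The authors deposited raw counts, 1 table per library. Members and gene lists were chosen with earlier results of these data known. Symbols were looked up by gene identifier (37607 of 38924 matched). Counts were tested with edgeR 4.0.16 in R 4.3.3 (quasi-likelihood test, two-sided, TMM factors, default filter, Benjamini-Hochberg over all genes tested, threshold 0.05). Dopamine (6 libraries) was set against serotonin (2), Lateral and Medial against serotonin, and datL against datM in a fit of 5 groups. CPM is a gene's count over all counts of its library, times 1000000. SEs were derived from the fold change and the test statistic. Values in every library are given for members with the smallest p or highest level in each class, the largest Lateral to Medial ratios, a count of 0, or a call in any fit. Alternatives were RLE factors, other filters, DESeq2 1.42.0, limma-voom 3.58.1, a replicate block, other sets of libraries and each library left out. The length offset (lowess, span 0.5) was added later. On simulated counts with known changes, edgeR recovered them where the spread between libraries was small (dispersion 0.05). It missed most of the smaller, 4-fold ones where the spread was large (dispersion 0.5). That simulation held no effect of run or exon length, and its spread was not matched to these libraries. With 2 to 6 libraries a side, a p that misses the threshold does not show that levels were alike. Limits for a count of 0 cover counting error only.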

Additional observations from a re-analysis of the deposited data

Results flagged for a closer look

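For 6 of the 51 members, 1 dopamine library lay apart from the other 5 by more than Dixon's 95% limit on log2(CPM + 1), or 11.8% of members beside 16.4% of all genes tested, where chance flags about 1 in 20. Of these, 5 were low in datL replicate 1: Papolg at 0.0441 CPM (others 32.3 to 69.7 CPM), Gigyf2 at 16.5 CPM (others 110 to 216 CPM), Elavl4 at 270 CPM (others 452 to 600 CPM), Rbfox1 at 61.1 CPM (others 114 to 155 CPM) and Rbfox2 at 91.5 CPM (others 198 to 311 CPM). Cpsf4 was low in datM replicate 1, at 0.11 CPM (others 17.5 to 46 CPM). Without datL replicate 1, 16 members in place of 12 lay above serotonin in every remaining dopamine library, where 6.11% of all genes did.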

How the results depend on the processing

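For dopamine against serotonin, the count of members past the threshold was 0 in edgeR under every alternative and 0 in limma-voom, and 5 in DESeq2. Genes past the threshold were 133 in DESeq2, 14 in limma-voom, 3 with the run as a term, 2 with 5 groups, 2 with datL and datM only, and 0 to 1 with each library left out. The median of the members was 0.60 to 0.65 with each library left out and 0.40 in limma-voom. The median of all genes, 0.26 in the fit reported, was -0.64 in limma-voom, -0.33 with 5 groups and -0.07 with the replicate block, where that of the members was 0.55 with 5 groups. In Lateral and Medial only, 26 members lay above serotonin, where 24.7% of all genes did, and with each library left out 12 to 16 did, where 3.63% to 6.11% of all genes did. Within lane 8, members past the threshold were 6 in DESeq2 and 0 to 13 with each library left out. Genes past it there were 7 with no filter, 787 in DESeq2, 1 in limma-voom and 13 to 2453 with each library left out, and the members' median was 0.20 with the length offset and 0.33 to 0.54 with each library left out. For datL against datM, members past the threshold were 0 in every fit, and genes 1609 in DESeq2, 243 in limma-voom and 0 to 6 with each library left out, and the members' median ran from -0.94 to -0.26. The causes were not tested. With the replicate number as a block, 0 members passed in both comparisons, with medians of 0.63 and -0.33. Deviations of datL and datM libraries with the same number correlated at 0.0984 over genes. No pairing by number was thus seen. A weak correlation between libraries that vary this much cannot exclude a shared source, on which the labels are silent. RLE factors gave medians of 0.65, 0.48 and -0.36, and library totals alone 0.53, 0.54 and -0.40. Depth limits Pabpn1 and Msi1, whose values rest on few counts.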
